A study of Mus musculus with 47 samples.

Results

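The 9 genes described here encode proteins of the tight junction, the seal between neighbouring epithelial cells: the claudins Cldn2, Cldn3, Cldn4, Cldn7, Cldn15 and Cldn23, the membrane protein occludin (Ocln), the scaffold protein ZO-1 (Tjp1) and the adhesion molecule JAM-A (F11r). They were found by symbol, as the probe sets whose single gene symbol in the array's probe-to-gene table was 1 of these 9. This gave 15 probe sets of the 45101 in the table, and 9 genes of the 18193 that have a probe set of their own. All 9 were among the 10916 genes measured widely enough to be fitted. Their messenger RNA was followed in crypts and villi of the small intestine of C57BL/6 mice on 47 Affymetrix arrays in 12 groups. In the genetic arm the mice were wild type, Apc1638N/+ or p21-/-, were labelled 3 months old and ate the purified diet Ain76A. Apc1638N/+ mice carry 1 mutated copy of the tumour suppressor gene Apc, and p21-/- mice lack the cell-cycle inhibitor p21, the product of Cdkn1a. In the diet arm wild-type mice labelled 1 year old had eaten Ain76A, NWD1 or NWD2, the last pair being purified diets made to resemble Western eating. Each group had 4 arrays, except villi of NWD2 mice with 3. Both study arms model a risk of intestinal tumours, and every mouse of the genetic arm shared its diet with the controls of the diet arm but not their age.

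Tight junctions are strands of claudins that run round the top of each epithelial cell and meet the strands of the next cell. Claudins with a pore, such as Cldn2 and Cldn15, let small cations pass between the cells, while others, such as Cldn3 and Cldn4, are known mainly as sealing claudins. Occludin tunes the strands, ZO-1 ties them to actin, and JAM-A holds the cell borders together. Crypts hold the dividing cells of the intestinal epithelium and villi the mature absorptive cells, and Cldn2 is known as a claudin of the crypt while Cldn4 is known from mature cells.

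The start regions of 5 of these genes are shown. Cldn2, Cldn4 and F11r had levels that separated crypts from villi in several conditions. Tjp1 was highest in crypts of p21-/- and Apc1638N/+ mice, and Cldn3 is the neighbour of Cldn4 on chromosome 5. Each is the stretch of 300 bases around the gene's start in RefSeq's GRCm38.p6 mouse assembly, with 8 of the 9 genes matched in that table. Capitals mark matches, on either strand, to the letters of a GC box (GGGCGG), an E-box (CAGGTG), a Cdx-type element (TTTATG), a nuclear receptor half-site (AGGTCA) and a TATA box (TATAAA). A Tcf-type element (CTTTGAT) was searched too and is in none of the 10 member start regions. Cldn2 lies on the plus strand at chrX:139800558-139800857, Cldn4 on the minus strand at chr5:134946885-134947184, Cldn3 on the plus strand at chr5:134985964-134986263, Tjp1 on the minus strand at chr7:65371195-65371494 and F11r on the plus strand at chr1:171437311-171437610.
Cldn2: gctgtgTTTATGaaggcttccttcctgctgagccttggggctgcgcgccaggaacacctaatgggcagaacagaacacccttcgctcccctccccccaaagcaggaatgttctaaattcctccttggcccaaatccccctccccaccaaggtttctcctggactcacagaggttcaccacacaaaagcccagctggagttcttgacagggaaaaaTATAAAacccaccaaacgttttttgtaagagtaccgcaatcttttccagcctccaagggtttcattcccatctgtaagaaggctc
Cldn4: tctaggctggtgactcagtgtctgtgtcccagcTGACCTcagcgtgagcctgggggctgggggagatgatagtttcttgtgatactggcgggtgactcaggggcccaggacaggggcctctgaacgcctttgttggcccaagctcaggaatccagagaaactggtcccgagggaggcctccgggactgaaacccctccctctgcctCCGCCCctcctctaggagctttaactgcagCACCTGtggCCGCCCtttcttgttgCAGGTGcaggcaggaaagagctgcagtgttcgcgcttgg
Cldn3: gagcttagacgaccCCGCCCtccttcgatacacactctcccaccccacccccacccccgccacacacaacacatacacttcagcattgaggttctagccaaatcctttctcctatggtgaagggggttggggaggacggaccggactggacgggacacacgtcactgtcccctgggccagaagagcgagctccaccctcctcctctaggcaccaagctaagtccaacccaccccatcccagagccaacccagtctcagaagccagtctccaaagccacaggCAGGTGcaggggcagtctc
Tjp1: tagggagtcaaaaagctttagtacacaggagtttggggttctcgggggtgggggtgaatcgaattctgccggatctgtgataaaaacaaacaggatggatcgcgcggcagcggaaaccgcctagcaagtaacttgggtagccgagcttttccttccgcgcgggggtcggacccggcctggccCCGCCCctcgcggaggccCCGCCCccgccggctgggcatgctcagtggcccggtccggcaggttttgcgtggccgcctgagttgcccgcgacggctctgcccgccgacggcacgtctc
F11r: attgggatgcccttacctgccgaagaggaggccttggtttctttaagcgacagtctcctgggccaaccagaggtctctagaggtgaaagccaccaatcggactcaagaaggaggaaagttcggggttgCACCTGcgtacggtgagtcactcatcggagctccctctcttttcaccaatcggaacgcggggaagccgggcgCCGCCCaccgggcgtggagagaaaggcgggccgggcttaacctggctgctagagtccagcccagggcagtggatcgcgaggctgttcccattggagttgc
The Cldn2 stretch held a Cdx-type match and a TATA box and no GC box, whereas each of the other 4 held a GC box. Over all 32851 start regions of the same length, 11.9% held the Cdx-type letters, 13.6% the TATA box, 35.7% the GC box, 20.2% the E-box, 16.3% the half-site and 3.73% the Tcf-type letters. The Cdx-type and TATA letters are alike, TTTATG beside TTTATA, the TATA box read on the other strand. GC content was 51.3% for Cldn2, near the median of 52.7% over all start regions, and 60.3% to 65.3% for the other 4. Cldn3 and Cldn4 are next to each other on chromosome 5, with no other protein-coding gene between them, and Ocln is next to Marveld2, another tight junction gene, on chromosome 13. A match of letters is a description and not a bound site.

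Levels are log2 values after quantile normalization, so a step of 1 is a doubling, and a fold is the difference of 2 such levels with its standard error. A gene was called in a comparison at an adjusted p under 0.05, over all genes tested. Of all values, 55.2% were blank in the deposited table, for a reason not given in the sources used here, and a gene was tested only where at least 3 arrays of each compared group were measured. Measured probe sets per array ranged from 14758 to 23296, and the 4 crypt arrays of p21-/- mice were low, at 14758 to 17315. As a check of the labels, 1 Cdkn1a probe set had no value on any of the 8 p21-/- arrays and values on the other 39. A second Cdkn1a probe set had values on all 47, at 11.24 to 13.39 in p21-/- and 11.43 to 14.09 elsewhere. Whether the probes of either lie in the deleted part was not examined, and no probe set of Apc separated Apc1638N/+ from the rest. All 10 epithelial and all 10 lymphocyte markers could be fitted, beside 0 of 8 endothelial and 2 of 10 stromal markers. A crypt-villus score was the mean of proliferation markers minus that of enterocyte markers. It used only markers measured on every array, 6 of 18 proliferation and 20 of 23 enterocyte markers. The score was -3.88 to -0.07 on crypt arrays and -6.13 to -4.20 on villus arrays. Wild type crypt arrays 2 and 4 had the lowest scores of their group (-2.91 and -2.82), and results that rest on that group are given without them where the call changes. Over the mean of the 6 conditions 8 of 8 tested proliferation and 4 of 4 Paneth cell markers were higher in crypts, and 18 of 20 enterocyte, 5 of 7 goblet cell and 4 of 4 lymphocyte markers higher in villi. Of the 7 goblet cell markers, 1 was called higher in crypts. The labels do not say that arrays of a group came from separate mice, so the p-values measure only the spread between these samples, which may be technical.

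**Figure D1:**
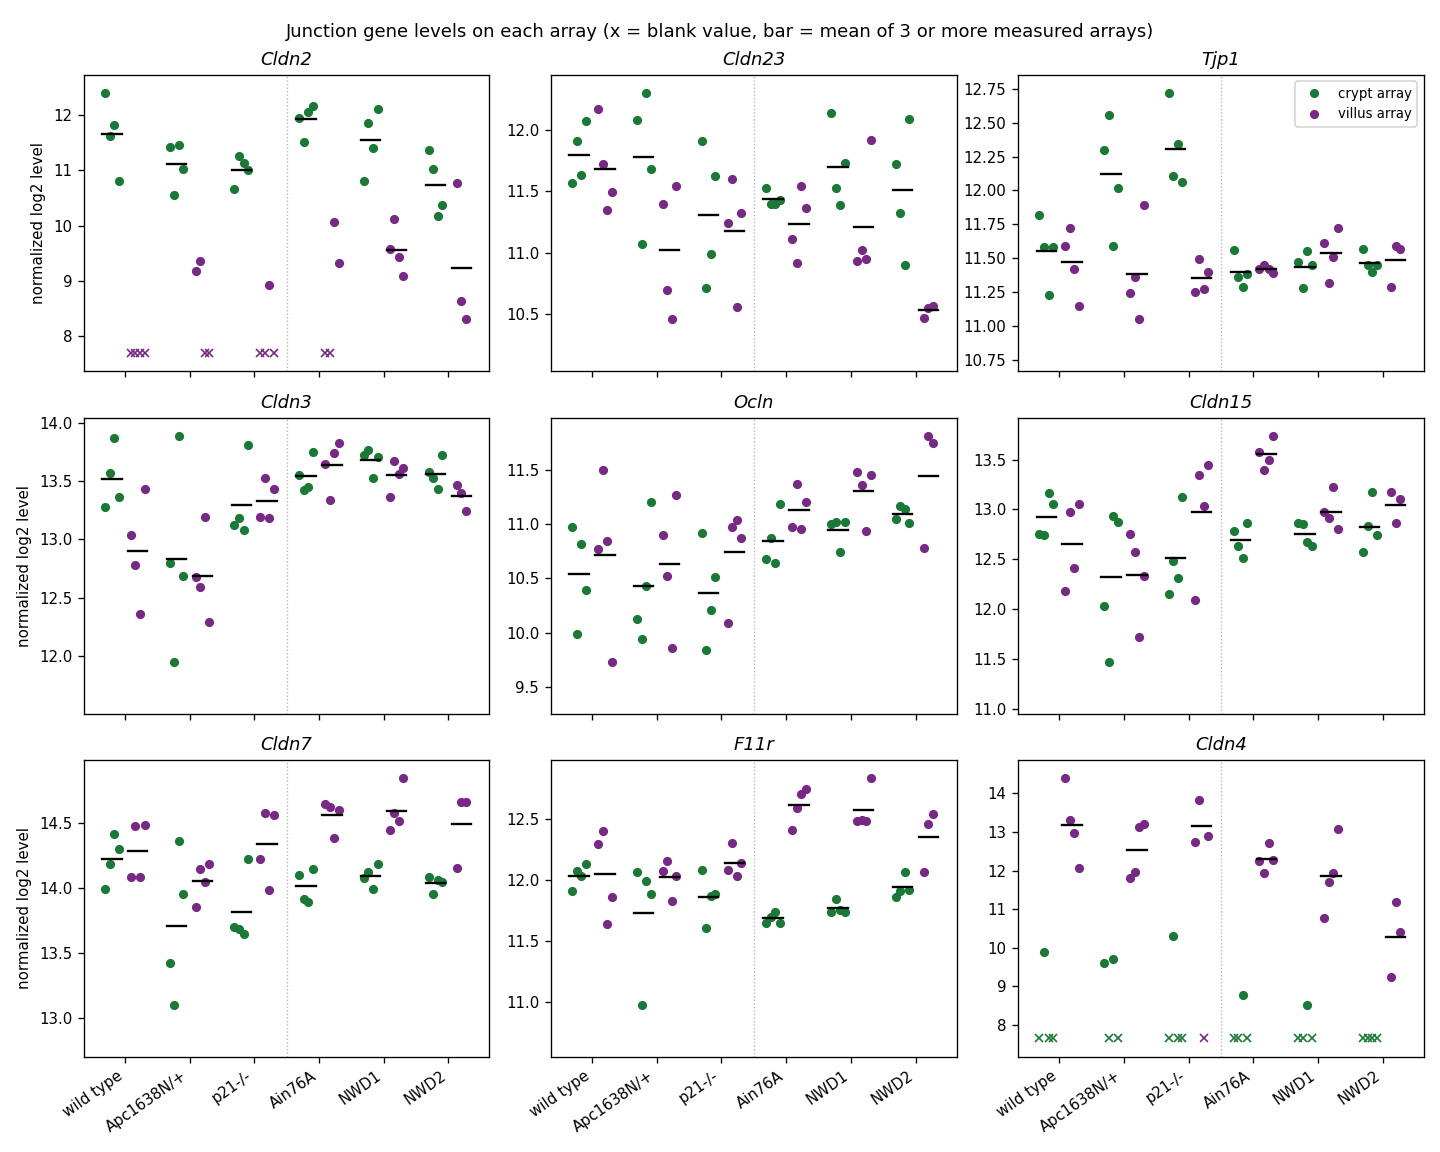
Normalized log2 level of each of the 9 genes (y axis, 1 panel a gene) on every array by condition (x axis), with crypt arrays in green, villus arrays in purple, blank values as crosses at the foot and means of 3 or more measured arrays as bars. Cldn2 is measured on all 24 crypt arrays and blank on 11 of 23 villus arrays, and Cldn4 is blank on 18 of 24 crypt arrays and on 1 villus array.

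The first question was how the 9 genes divide between crypt and villus. Over the mean of the 6 conditions, 7 of the 9 could be tested and 6 were called. Tjp1 and Cldn23 were higher in crypts, and Cldn7, Cldn15, Ocln and F11r were higher in villi. Across all genes tested 74.7% were called in this comparison, so 6 of 7 is close to the background. The median log2 fold of the 7 was -0.25, beside -0.03 over all genes tested. All 6 folds were small, between 1.19-fold and 1.37-fold. Cldn2 and Cldn4, whose group means covered the widest ranges (2.68 and 2.91), could not be tested over the mean because too many of their arrays were blank in 1 tissue. In these bulk samples, fewer cells of a type and less RNA per cell cannot be told apart.

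Cldn2, a claudin that forms a cation pore, was measured on all 24 crypt arrays, at 10.18 to 12.40 with a median of 11.39, and on 12 of 23 villus arrays, at 8.31 to 10.77 with a median of 9.34. All 4 villus arrays of wild-type mice were blank. In villi of Apc1638N/+ mice arrays 1 and 2 gave 9.18 and 9.36, in p21-/- villi array 3 gave 8.92, and in Ain76A villi arrays 3 and 4 gave 10.06 and 9.32. Blanks were thus most common in the genetic arm, where 3 of 12 villus arrays were measured, beside 9 of 11 in the diet arm. Measured probe sets of any kind numbered 17022 to 21115 on those villus arrays of the genetic arm and 20486 to 22381 in the diet arm, and the part this played was not tested.

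Both diets with enough measured villus arrays showed Cldn2 higher in crypts. On NWD1, crypt arrays gave 10.80, 11.85, 11.41 and 12.10 and villus arrays 9.57, 10.12, 9.43 and 9.09. No villus array reached the lowest crypt array. The fold was 1.99 ± 0.38, or 3.97-fold (adjusted p = 0.000105), and it was called without each of the 8 arrays in turn. The second Cldn2 probe set gave 1.10 ± 0.35 there (adjusted p = 0.0160, every probe set tested). On NWD2, crypt arrays gave 11.37, 11.03, 10.18 and 10.37 and villus arrays 10.77, 8.63 and 8.31, so that villus array 1 overlapped the crypts. The NWD2 fold was 1.50 ± 0.41 (adjusted p = 0.0153). It was not called without crypt array 1 (adjusted p = 0.0799), villus array 2 (0.156) or villus array 3 (0.228), nor with only the NWD2 groups in the fit (0.0880), and it was 2.26 ± 0.37 without villus array 1. That array had a crypt-villus score of -4.22, beside -6.13 and -6.07 for the other villus arrays of the group. With every blank set to the 2nd percentile of its array, Cldn2 was 3.32 ± 0.28 higher in crypts over the mean of the 6 conditions (adjusted p = 1.40e-13), a value that rests on that floor.

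The 6 crypt groups filled the top of the order of Cldn2 levels. The mean was 11.92 ± 0.29 (SD, n = 4) on Ain76A, 11.66 ± 0.66 in wild type, 11.54 ± 0.57 on NWD1, 11.11 ± 0.42 in Apc1638N/+, 11.01 ± 0.26 in p21-/- and 10.73 ± 0.56 on NWD2. None of these crypt neighbours differed by more than the larger of their SDs. The step down to villi on NWD1, at 9.55 ± 0.43, was larger than that spread.

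Cldn4, a sealing claudin, had the opposite distribution. It was measured on 22 of 23 villus arrays, at 9.25 to 14.39 with a median of 12.27, and on 6 of 24 crypt arrays, at 8.53 to 10.31. Wild-type villi gave 14.39, 13.31, 12.97 and 12.07. Apc1638N/+ villi gave 11.80, 11.97, 13.12 and 13.21, and p21-/- villi 12.73, 13.84 and 12.89 with array 3 blank. In each of these groups every measured villus array lay above every measured crypt array of the same condition. The measured crypt arrays were wild type array 2 at 9.88, Apc1638N/+ arrays 1 and 3 at 9.61 and 9.71, p21-/- array 2 at 10.31, Ain76A array 3 at 8.77 and NWD1 array 3 at 8.53. All 4 crypt arrays of NWD2 mice were blank. No condition had 3 measured crypt arrays, so the difference between tissues was not tested on measured values. With blanks at the 2nd percentile it was -4.96 ± 0.43 over the mean of the 6 conditions (adjusted p = 2.60e-13) and -3.77 to -6.20 in single conditions, sizes that rest on the floor. Villi of the diet arm gave 12.26, 11.94, 12.71 and 12.28 on Ain76A, 10.76, 11.70, 11.93 and 13.07 on NWD1, and 9.25, 11.19 and 10.41 on NWD2. The NWD2 mean was the lowest of the 6 villus groups, and its gap to the NWD1 mean was larger than the SD of either. The arrays of these 2 diets overlapped, with NWD2 array 2 at 11.19 above NWD1 array 1 at 10.76.

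Cldn15, the other cation pore claudin, was measured on all 47 arrays and was higher in villi by 0.25 ± 0.11 (adjusted p = 0.0337). The call was lost without any 1 of 8 arrays, with adjusted p up to 0.0644 without Apc1638N/+ crypt array 2. Its largest tissue difference was on Ain76A, where crypt arrays gave 12.78, 12.63, 12.51 and 12.86 and villus arrays 13.58, 13.39, 13.50 and 13.74. The groups did not overlap, and the crypt minus villus fold was -0.86 ± 0.26 (adjusted p = 0.00507), called without each of the 8 arrays in turn. In the other 5 conditions Cldn15 folds lay between -0.46 and 0.28, and none was called. Villi on Ain76A headed the order of Cldn15 levels at 13.55 ± 0.14 (SD, n = 4), beyond the spread of the next group.

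Cldn7, a claudin that also lies along the side membranes and binds Epcam, was measured on all 47 arrays, at 13.10 to 14.84. It was higher in villi by 0.41 ± 0.07 (adjusted p = 6.08e-06), and was called without each of the 47 arrays in turn. The size depended on the scaling: -0.22 ± 0.09 with the deposited scaling (adjusted p = 0.0296) and -0.18 ± 0.09 with median centring (0.0587). On Ain76A crypts gave 14.10, 13.91, 13.89 and 14.14 and villi 14.64, 14.62, 14.38 and 14.60, with no overlap (fold -0.55 ± 0.18, adjusted p = 0.00967). On NWD1 crypts gave 14.07, 14.12, 13.99 and 14.18 and villi 14.44, 14.57, 14.51 and 14.84, again with no overlap (fold -0.50 ± 0.18, adjusted p = 0.0241). In p21-/- mice the fold was -0.52 ± 0.18 (adjusted p = 0.0168), with overlap because crypt array 4 stood at 14.22. These 3 calls were lost under both other scalings, with adjusted p of 0.0932 to 0.404, and folds of -0.44 to -0.22. The NWD1 call was also lost without crypt array 3 (0.0583) or villus array 4 (0.0950), and the p21-/- call without crypt array 3, villus array 2 or villus array 4 (0.0520 to 0.0663) and with only its groups in the fit (0.0802). In wild-type mice the fold was -0.06 ± 0.18 (adjusted p = 0.814).

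F11r, the adhesion molecule JAM-A, was higher in villi under every setting run. Over the mean of the 6 conditions the crypt minus villus fold was -0.45 ± 0.07 (adjusted p = 2.16e-07), was called without each of the 47 arrays in turn, and was -0.54 and -0.50 under the other scalings. On Ain76A crypt arrays gave 11.65, 11.70, 11.74 and 11.65 and villus arrays 12.41, 12.59, 12.70 and 12.74. The groups were well apart, with a crypt minus villus fold of -0.92 ± 0.17, or 1.89-fold (adjusted p = 1.41e-05). On NWD1 crypts gave 11.74, 11.84, 11.75 and 11.74 and villi 12.48, 12.49, 12.48 and 12.83 (fold -0.80 ± 0.17, adjusted p = 0.000197). Both calls held without each of their 8 arrays in turn. On NWD2 the arrays did not overlap either, with crypts at 11.86 to 12.06 and villi from just above that to 12.54, but the fold of -0.42 ± 0.18 was not called (adjusted p = 0.128). Wild-type mice at 3 months gave -0.01 ± 0.17, with villi spread from 11.64 to 12.40. The second F11r probe set was measured on 11 of the 47 arrays, and no fold was fitted for it.

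Ocln was higher in villi by 0.29 ± 0.12 over the mean of the 6 conditions (adjusted p = 0.0301). The call was lost without any 1 of 6 arrays, with adjusted p up to 0.0587 without NWD2 villus array 2, and was 0.0891 without wild type crypt arrays 2 and 4. In single conditions the Ocln folds were -0.17 to -0.37 and none was called, and the wild-type fold was 0.19 without crypt arrays 2 and 4. Its second probe set gave 0.06 ± 0.10 over the mean (adjusted p = 0.557). In wild-type mice that probe set was higher in crypts, with crypt arrays at 11.29, 10.97, 10.38 and 10.59 and villus arrays at 9.86, 10.55 and 9.66, array 3 being blank. This fold of 0.79 ± 0.25 was called (adjusted p = 0.00979, every probe set tested), whereas the main Ocln probe set gave -0.17 ± 0.30 there. The 2 probe sets disagree, so the direction for Ocln is uncertain.

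Cldn23 was higher in crypts by 0.45 ± 0.12 over the mean of the 6 conditions, or 1.37-fold (adjusted p = 0.000645), and was called without each of the 47 arrays in turn. The difference was largest on NWD2, where crypt arrays gave 11.72, 11.32, 10.90 and 12.09 and villus arrays 10.47, 10.55 and 10.57. All crypt arrays lay above all villus arrays, with a fold of 0.98 ± 0.30 (adjusted p = 0.0254). In Apc1638N/+ mice crypts gave 12.08, 11.07, 12.30 and 11.68 and villi 11.40, 10.70, 10.46 and 11.54, which overlap (fold 0.76 ± 0.28, adjusted p = 0.0265). Each of these calls was lost without any 1 of 4 arrays. For NWD2 these were crypt arrays 1 (0.0906) and 4 (0.116) and villus arrays 2 (0.103) and 3 (0.107). For Apc1638N/+ these were crypt arrays 1 (0.0801) and 3 (0.105) and villus arrays 2 (0.0841) and 3 (0.118), and the Apc1638N/+ fold was not called with the deposited scaling (0.0709) or with only these groups in the fit (0.124). Same-numbered crypt and villus arrays of NWD2 mice deviated together, which does not show that a number marks 1 mouse. With the number as a block the NWD2 fold was 0.79 ± 0.31 (adjusted p = 0.0944). Villi on NWD2 had the lowest Cldn23 mean of the 12 groups, 10.53 ± 0.05 (SD, n = 3).

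Cldn3, a sealing claudin, was not called over the mean of the 6 conditions (0.16 ± 0.10, adjusted p = 0.138), and its 4 probe sets gave 0.16 to 0.18. It was called in wild-type mice, where crypt arrays gave 13.28, 13.57, 13.87 and 13.36 and villus arrays 13.04, 12.78, 12.36 and 13.43. The groups overlapped at villus array 4, and the fold was 0.61 ± 0.23 (adjusted p = 0.0294). It was not called without crypt arrays 2 (0.0532) or 3 (0.107) or villus arrays 2 (0.0635) or 3 (0.152), nor without crypt arrays 2 and 4 together (0.67, adjusted p = 0.0588) or with only these groups in the fit (0.0811). The other 3 Cldn3 probe sets gave 0.47 to 0.59 there and none was called.

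Tjp1, which encodes the scaffold ZO-1, was higher in crypts by 0.27 ± 0.07 over the mean of the 6 conditions (adjusted p = 0.000930), with calls in single conditions in Apc1638N/+ and p21-/- mice. In p21-/- mice crypt arrays gave 12.72, 12.11, 12.34 and 12.06 and villus arrays 11.25, 11.49, 11.27 and 11.40, with no overlap. The fold was 0.95 ± 0.17, or 1.93-fold (adjusted p = 2.75e-05). In Apc1638N/+ mice crypts gave 12.30, 12.56, 11.59 and 12.02 and villi 11.24, 11.36, 11.05 and 11.89, which overlap at crypt array 3 (fold 0.73 ± 0.17, adjusted p = 0.000813). Both calls held without each of their 8 arrays in turn. In the other 4 conditions Tjp1 folds were -0.11 to 0.08 and none was called. With only the Apc1638N/+ groups in the fit its call was lost (0.0794).

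The number of the 9 genes called differed between conditions as follows, beside the share of all genes. In wild type 1 of 7 was called and 46.1% of all genes, in Apc1638N/+ 2 of 7 and 41.1%, and in p21-/- 2 of 7 and 46.0%. On Ain76A 3 of 7 were called and 52.5% of all genes, on NWD1 3 of 8 and 41.6%, and on NWD2 2 of 8 and 12.5%. In 5 of the 6 conditions the share among the tested members was thus below that of all genes, but each share rests on 7 or 8 genes. Blanks kept Cldn4 out of every condition and Cldn2 out of all but NWD1 and NWD2. With blanks at a floor more members were called in wild type, Apc1638N/+, p21-/- and Ain76A mice, as given in the closing section. The direction was not shared: the called folds were positive for Cldn2, Cldn3, Cldn23 and Tjp1 and negative for Cldn7, Cldn15 and F11r in every condition that called them.

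**Figure D2:**
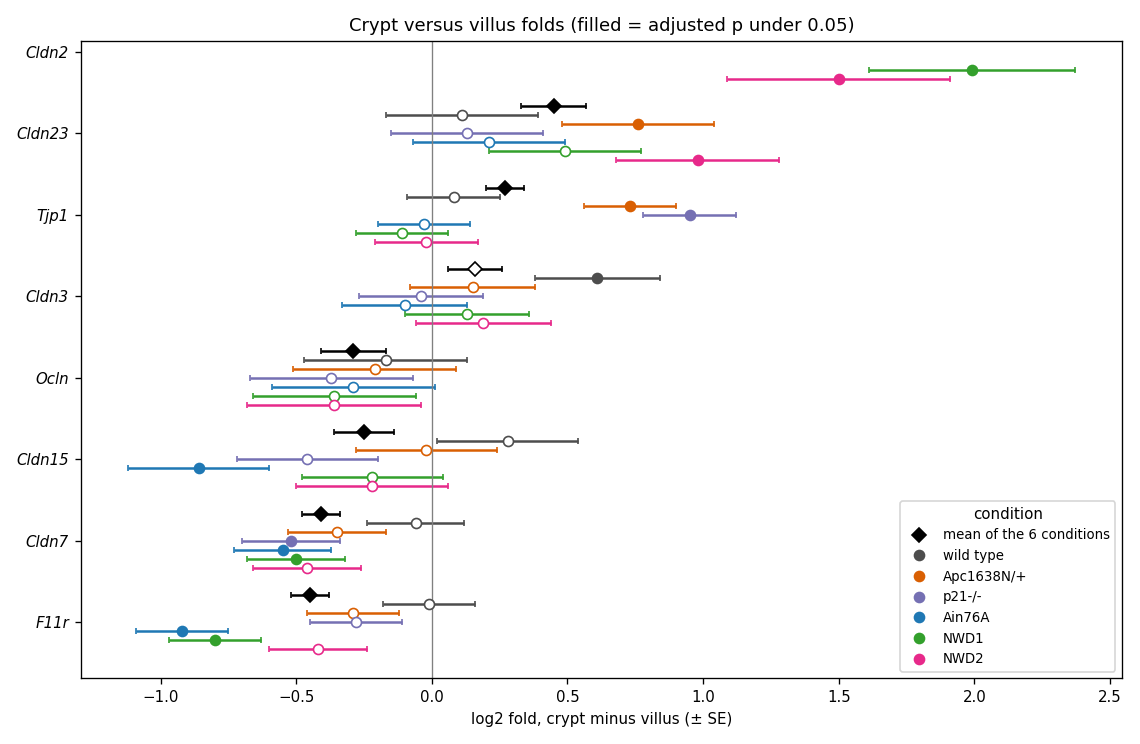
Log2 fold of crypt minus villus (x axis, ± SE) for the 8 genes that could be tested (y axis), over the mean of the 6 conditions (diamonds) and in each condition (circles), filled where the adjusted p is under 0.05. Cldn2 reaches 1.99 on NWD1 and 1.50 on NWD2, Tjp1 is at 0.95 in p21-/- and 0.73 in Apc1638N/+ and near 0 elsewhere, and F11r is at -0.92 on Ain76A and -0.80 on NWD1.

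The genotypes were compared with wild type within each tissue, at the same age and diet. In p21-/- crypts Tjp1 was the 1 member called of 8 tested, beside 5.34% of all genes. Its p21-/- crypt arrays, 12.06 to 12.72, all lay above the wild-type crypt arrays at 11.82, 11.58, 11.23 and 11.58. Means were 12.31 ± 0.30 and 11.55 ± 0.24 (SD, n = 4 each), and Tjp1 rose by 0.76 ± 0.17, or 1.69-fold (adjusted p = 0.00958). The call held without each of the 8 arrays in turn (highest adjusted p 0.0428) and without wild type crypt arrays 2 and 4 (0.0294). It was not called with the deposited scaling, at 0.53 ± 0.20 (adjusted p = 0.0981), or with only these groups in the fit (0.197). The median over all genes moved from 0.03 to -0.13 under the deposited scaling, and the p21-/- crypt arrays had few measured probe sets, as given above. Markers moved in this comparison too: 4 of 7 Paneth cell markers rose, 2 of 20 enterocyte markers and 3 of 4 lymphocyte markers fell, and 0 of 17 proliferation markers were called. The part of these in the Tjp1 result was not tested beyond the score, with which as a covariate the fold was 0.69 ± 0.16 (adjusted p = 0.0129).

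In villi Tjp1 was not called, at 11.25 to 11.49 in p21-/- and 11.15 to 11.72 in wild type (fold -0.12 ± 0.17, adjusted p = 0.849). The difference between the tissue folds of p21-/- and wild type was 0.87 ± 0.25 for Tjp1 (adjusted p = 0.0522), just outside the threshold. It passed without wild type crypt array 1 (0.0417), p21-/- crypt array 4 (0.0257), wild type villus array 4 (0.0324) or p21-/- villus array 1 (0.0450), and was 0.247 with the deposited scaling. No member was called in this test of the tissue difference (0 of 7 in limma), beside 1.75% of all genes. An unadjusted p under 0.05 was reached by 1 member and by 1225 of 6874 genes. In p21-/- villi 0 of 8 members were called in limma, beside 0.0371% of all genes. There 0 members and 896 of 8087 genes had an unadjusted p under 0.05.

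In crypts of Apc1638N/+ mice several members had a low unadjusted p without being called. Of 8 tested, 0 were called in limma, beside 0.0497% of all genes. Of these 8, 4 had an unadjusted p under 0.05, beside 996 of all 8042 genes. Tjp1 was at 12.30, 12.56, 11.59 and 12.02, and its fold against wild type was 0.57 ± 0.17 (adjusted p = 0.160). Only array 3 lay inside the wild-type range. Cldn3 in these crypts gave 12.80, 11.95, 13.89 and 12.69 (fold -0.68 ± 0.23, adjusted p = 0.207) and Cldn7 13.42, 13.10, 14.36 and 13.95 (fold -0.52 ± 0.18, adjusted p = 0.222). For both claudins array 3 was the highest and array 2 the lowest. Cldn15 gave 12.03, 11.47, 12.93 and 12.87 (fold -0.60 ± 0.26, adjusted p = 0.326). Without array 3 of these crypts 8.86% of all genes were called, and so were 3 members: Cldn3 at -1.04 ± 0.21 (adjusted p = 0.00304), Tjp1 at 0.74 ± 0.17 (0.00698) and Cldn7 at -0.73 ± 0.18 (0.00807). Measured probe sets on these 4 arrays numbered 15802, 15418, 18748 and 21855. Array 3 was neither the fullest nor the emptiest. Its lymphocyte marker level, the mean of the 3 markers measured on every array, was 11.17, the highest of the 4 (9.06 to 10.18 on the others). Wild-type crypt arrays ranged from 9.67 to 11.8 by that measure. Array 3 was also the highest of the 4 for Paneth cell (16.03) and epithelial (14.0) markers. The part of any of these was not tested.

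In Apc1638N/+ villi 0 of 8 members and 0.0246% of all genes were called in limma. An unadjusted p under 0.05 was reached by 1 member and by 437 of 8123 genes. That member was Cldn23, at 11.40, 10.70, 10.46 and 11.54, beside 12.17, 11.72, 11.35 and 11.49 in wild type (fold -0.66 ± 0.28, adjusted p = 0.874). The test of the difference between the tissue folds of Apc1638N/+ and wild type called 0 of 7 members in limma, beside 0.0139% of all genes. It put 1 member and 459 of 7192 genes under an unadjusted p of 0.05. That member was Tjp1, at 0.65 ± 0.25 (adjusted p = 0.644). The comparisons of Apc1638N/+ and of p21-/- share their wild-type arrays.

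**Figure D3:**
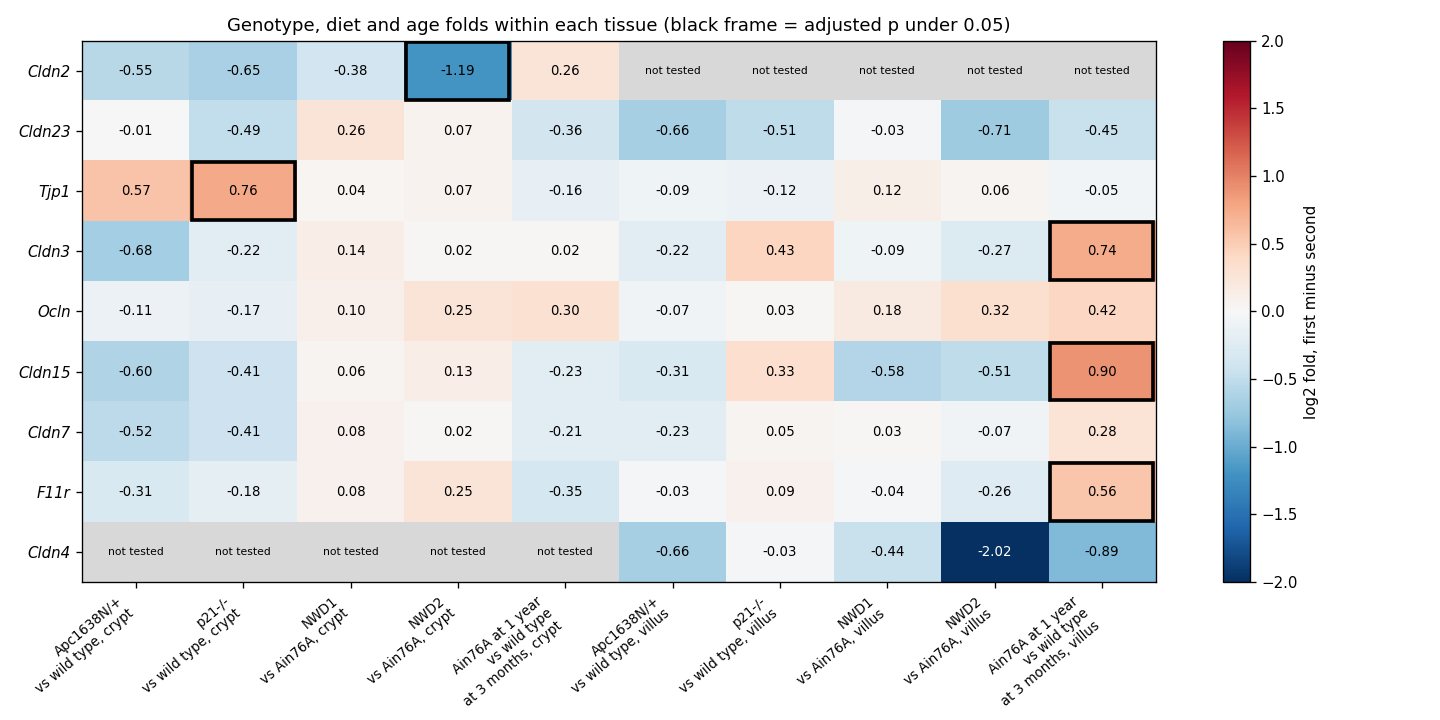
Log2 folds of the 9 genes (rows) in the genotype, diet and age comparisons within crypts and within villi (columns), with red higher in the group named first, blue lower, grey not tested for too few measured arrays, and a black frame where the adjusted p is under 0.05. Framed are Tjp1 in p21-/- crypts (0.76), Cldn2 in NWD2 crypts (-1.19), and Cldn3 (0.74), Cldn15 (0.90) and F11r (0.56) in villi at 1 year against 3 months.

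The diets were compared with Ain76A at 1 year. On NWD2, Cldn2 was the 1 member called in crypts of 8 tested, beside 8.15% of all genes. Crypt arrays on NWD2, at 11.37, 11.03, 10.18 and 10.37, all lay below those on Ain76A, at 11.95, 11.51, 12.06 and 12.17. Cldn2 fell by 1.19 on the log2 scale (SE 0.38, 2.28-fold, adjusted p = 0.0489). This call was at the edge of the threshold: it held without 2 of the 8 arrays left out in turn, and the largest adjusted p was 0.222, without NWD2 crypt array 3. It was lost without NWD2 crypt arrays 2 (0.0794) or 4 (0.125) and without Ain76A crypt arrays 1 (0.106), 3 (0.116) or 4 (0.105). It was not called under the deposited scaling either (-0.97 ± 0.42, adjusted p = 0.152) or with median centring (0.0738). The second Cldn2 probe set overlapped between the diets, at 9.12, 9.90, 9.86 and 10.01 in Ain76A crypts and 9.57, 9.46, 8.94 and 9.37 in NWD2 crypts. Its fold of -0.38 ± 0.35 was not called (adjusted p = 0.569, every probe set tested).

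Markers of crypt and villus moved with the NWD2 result. On NWD2 crypt arrays the crypt-villus score was -1.76, -3.25, -3.88 and -2.92, and on Ain76A crypt arrays -0.07, -1.17, -1.17 and -0.60. The scores did not overlap, and the NWD2 arrays stood closer to villi. In the same comparison 13 of 21 enterocyte markers rose, 5 of 17 proliferation markers fell, and 1 of 7 Paneth cell and 1 of 7 goblet cell markers fell. With that score as a covariate the Cldn2 fold was -0.35 ± 0.36 (adjusted p = 0.997), and limma called 0 of all 9471 genes in place of 772, with 382 at an unadjusted p under 0.05. NWD2 crypt array 1, with the score nearest to Ain76A, also had the highest Cldn2 level of its group. Array 2, however, had more Cldn2 than array 4 at a lower score (-3.25 beside -2.92). Because the scores of these diets did not overlap, an effect of diet and a different mix of crypt and villus cells cannot be told apart here.

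**Figure D4:**
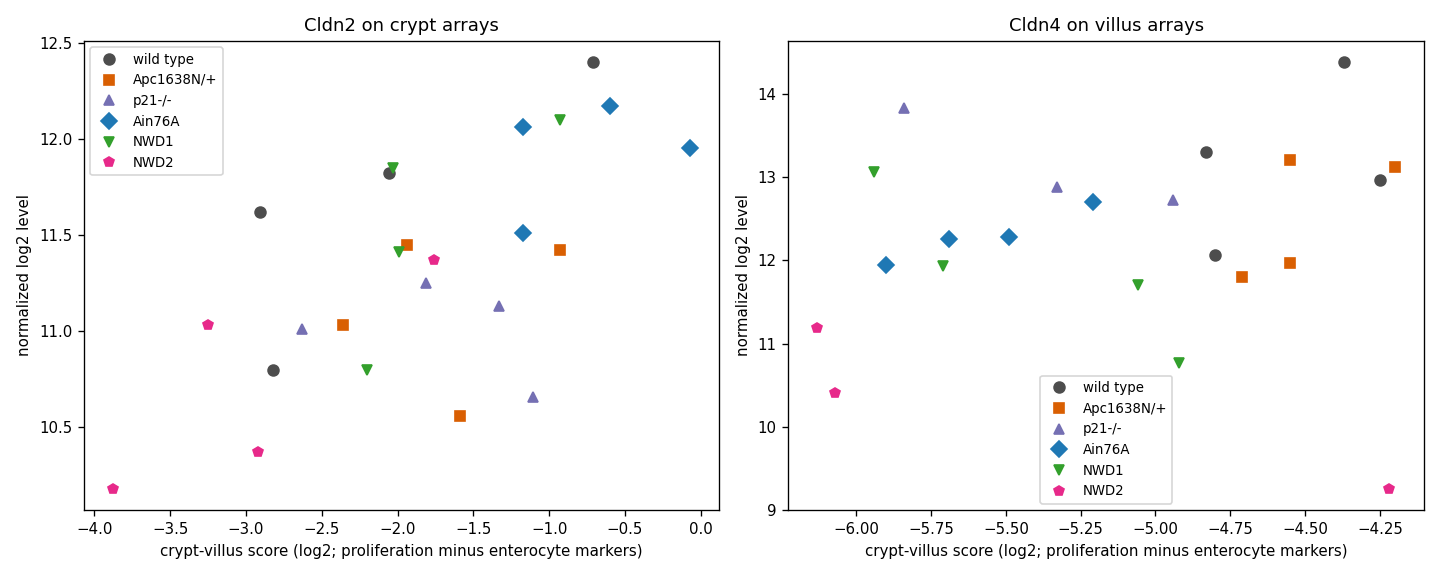
Normalized log2 level (y axis) of Cldn2 on the 24 crypt arrays (left) and of Cldn4 on the 22 measured villus arrays (right) against the crypt-villus score of the same array (x axis, log2 units, higher is more crypt-like), by condition. NWD2 crypt arrays (pink) have scores of -3.88 to -1.76 and Cldn2 at 10.18 to 11.37, while the NWD2 villus arrays with Cldn4 at 9.25 to 11.19 lie at both ends of the villus scores.

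In villi on NWD2 0 of 8 members were called in limma, beside 0.352% of all genes. Of these 8, 2 had an unadjusted p under 0.05, beside 1010 of all 8797 genes. Cldn4 came nearest: its NWD2 arrays (9.25, 11.19 and 10.41) all lay below the Ain76A arrays (11.94 to 12.71), with means of 10.28 ± 0.98 (SD, n = 3) and 12.30 ± 0.32 (SD, n = 4). The fold was -2.02 ± 0.51 (adjusted p = 0.0806). It was called with the deposited scaling (-2.07, adjusted p = 0.0488), with median centring (-2.09, 0.0478) and with only these groups in the fit (0.0322). It was not called with the replicate number as a block (-1.82, 0.317), with blanks at the floor (0.556) or without any 1 array (folds of -2.47 to -1.50, adjusted p of 0.0701 to 0.390). Neither villus group held a Cldn4 blank, so the floor could change only the spread taken from all groups and the adjustment, not this fold. The villus array with the least Cldn4, array 1, had the most Cldn2, 10.77, and the highest crypt-villus score of its group, -4.22. With the score as a covariate the Cldn4 fold was -1.95 ± 0.48 (adjusted p = 0.0574). Cldn23 was the other, with NWD2 villi at 10.47 to 10.57 below Ain76A villi at 10.92 to 11.54 and a fold of -0.71 ± 0.30 (adjusted p = 0.331). Cldn15 arrays did not overlap either, at 12.86 to 13.17 on NWD2 and 13.39 to 13.74 on Ain76A (fold -0.51 ± 0.28, adjusted p = 0.504).

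On NWD1 no member was called in either tissue. In crypts limma called 0 of 8 members and 0% of all genes, with 0 members and 329 genes at an unadjusted p under 0.05, and member folds lay between -0.38 (Cldn2) and 0.26 (Cldn23). In villi 0 of 8 members and 0.0437% of all genes were called in limma. An unadjusted p under 0.05 was reached by 1 member and by 466 of 9153 genes. That member was Cldn15, whose NWD1 villi at 12.97, 12.91, 13.22 and 12.80 all lay below the Ain76A villi (fold -0.58 ± 0.26, adjusted p = 0.919). Paneth cell markers were higher in these NWD1 villi, with 2 of 5 called. The tests of whether a diet changed the tissue difference called 0 of 7 members in limma for NWD1, with 0 members and 233 genes at an unadjusted p under 0.05, and 0% of all genes. For NWD2 they called 0 of 7 members in limma, beside 0.500% of all genes. An unadjusted p under 0.05 was reached by 1 member and by 1638 of 8407 genes. That member was F11r, at 0.51 ± 0.25 (adjusted p = 0.253). With the replicate number as a block, 0 members and 3.42% of all genes were called in the NWD2 test. NWD1 and NWD2 were set against the same Ain76A arrays.

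The controls of both arms ate Ain76A and differed in age, so Ain76A mice at 1 year were set against wild-type mice at 3 months. Age and study arm cannot be told apart in this comparison. In villi 3 of 8 members were called, all higher at 1 year, beside 16.3% of all genes. Cldn15 rose most, from 12.18, 12.97, 12.41 and 13.05 at 3 months to 13.39 to 13.74 at 1 year, with no overlap (0.90 ± 0.26, adjusted p = 0.0143). Cldn3 rose by 0.74 ± 0.23 (adjusted p = 0.0262), from a mean of 12.90 ± 0.45 to 13.64 ± 0.21 (SD, n = 4 each), with overlap. F11r rose by 0.56 ± 0.17 (adjusted p = 0.0185), from 11.64 to 12.40 at 3 months to 12.41 to 12.74 at 1 year. Each call depended on single arrays. Cldn15 was not called without wild type villus arrays 1 (0.0693) or 3 (0.0570). Cldn3 was not called without wild type villus array 3 (0.145) or Ain76A villus arrays 1 (0.0518), 3 (0.0660) or 4 (0.0750). F11r was not called without wild type villus arrays 3 (0.116) or 4 (0.0515) or Ain76A villus arrays 3 (0.0535) or 4 (0.0554), nor with only these groups in the fit (0.0563).

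Lymphocyte markers moved with this comparison: 10 of 10 fell in villi. The mean level of the 3 of them measured on every array was 13.03 to 14.16 on the wild-type arrays and 10.93 to 11.86 on the Ain76A arrays. Enterocyte markers rose in 3 of 21. The part of lymphocytes in the claudin values was not tested. With the score added to the fit the folds were 0.70 for Cldn15 (adjusted p = 0.149), 0.74 for Cldn3 (0.107) and 0.33 for F11r (0.312). In crypts between the ages, 1 of 8 members (F11r) and 2536 of 8970 genes had an unadjusted p under 0.05 in limma. The adjusted threshold called 0 members and 10.9% of all genes. That share was 0.570% without wild type crypt arrays 2 and 4 and 0.936% with the score as a covariate. There 11 of 21 enterocyte markers fell. F11r crypt arrays at 1 year, 11.65 to 11.74, all lay below those at 3 months, 11.91 to 12.13 (fold -0.35 ± 0.17, adjusted p = 0.166).

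The remaining junction genes came from 3 lists. Of 53 other tight junction genes, 22 could be tested between the tissues over the mean of the 6 conditions: 4 were higher in crypts, 11 higher in villi and 7 not called, with a median log2 fold of -0.20. Of 20 adherens junction and desmosome genes 17 were tested, 3 higher in crypts and 11 in villi (median -0.37). Of 7 claudin partners and proteases 5 were tested, 0 higher in crypts and 4 in villi (median -0.38). These shares stand beside the 74.7% called over all genes and its median of -0.03. On each of the 3 lists, 0 of the called genes changed sign under the other scalings.

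Among the largest villus-higher folds, Cgn, the plaque protein cingulin, was at -1.23 ± 0.09 (adjusted p = 2.17e-16). Mpp5 and Patj, which bind each other in the Crumbs polarity complex, were at -1.23 ± 0.15 (9.45e-10) and -1.18 ± 0.08 (5.42e-16). Pard6b, of the Par polarity complex, was at -1.21 ± 0.14, the junction adhesion protein Igsf5 at -1.12 ± 0.10, and the adherens junction protein alpha-catenin (Ctnna1) at -0.99 ± 0.08. On the crypt-higher side Ybx3, a transcription factor that binds ZO-1, led with 2.10 ± 0.13 (adjusted p = 3.61e-18), followed by Amot at 1.02 ± 0.10, the claudin Cldn12 at 0.70 ± 0.11, the desmosome protein Pkp2 at 0.48 ± 0.10, Sympk at 0.45 ± 0.11 and the actin linker Vcl at 0.29 ± 0.07. The 7 tested members lay between -0.45 and 0.45, inside the range of these other junction genes.

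**Figure D5:**
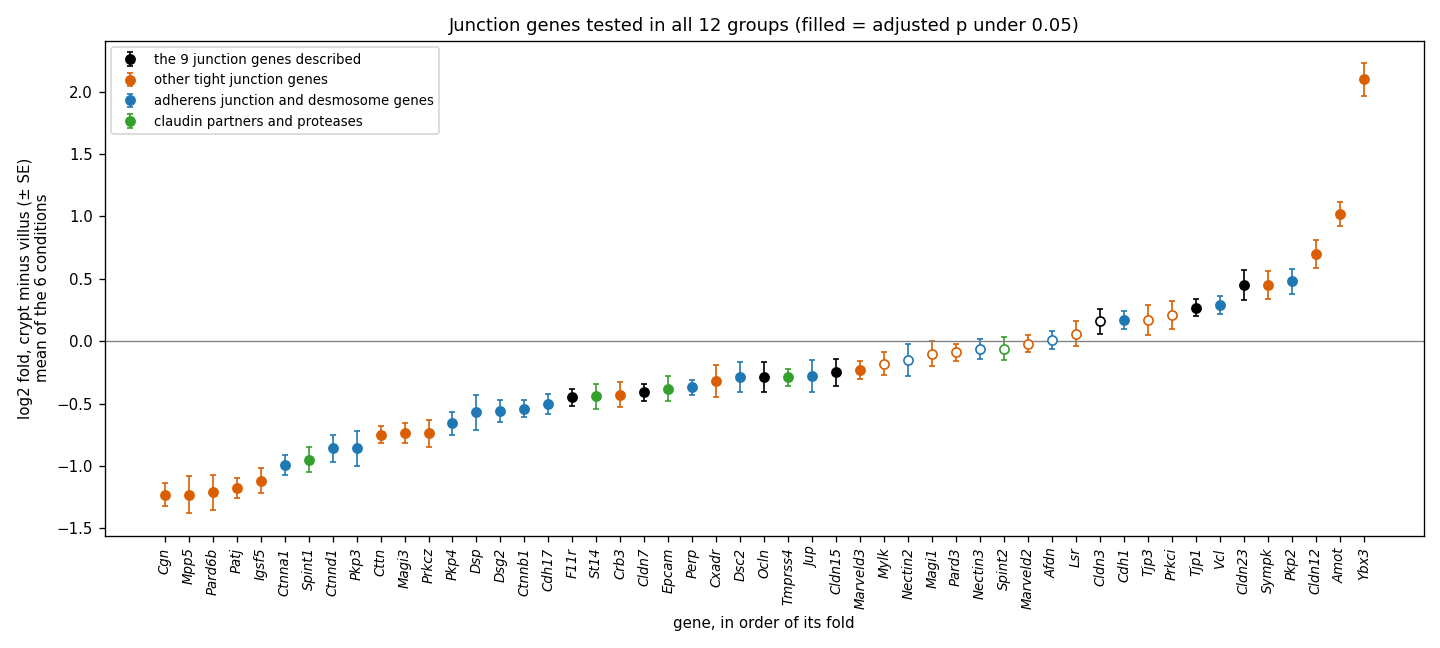
Log2 fold of crypt minus villus over the mean of the 6 conditions (y axis, ± SE) for each junction gene tested in all 12 groups (x axis, in order of fold), coloured by list and filled where the adjusted p is under 0.05. The 7 tested members (black) lie between -0.45 (F11r) and 0.45 (Cldn23), with Cgn at -1.23 and Ybx3 at 2.10 at the ends.

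Within a tissue, junction genes of the 3 lists were called mainly between the ages. These comparisons also called the largest shares of all genes within a tissue, and the shares on the lists were near them. Unless stated, the folds given are those with the smallest p in each tissue, over the 3 lists together. In villi 9 of 47 tested were called, beside 16.3% of all genes. Patj fell by 0.91 and Cgn by 1.09, while Cxadr, a junction adhesion molecule, rose by 1.36 ± 0.31 (adjusted p = 0.00228) and Perp, a desmosome protein, by 0.93 ± 0.16 (0.000181). The desmosome genes Dsc2 (1.02) and Dsp (-1.12), named after their values were seen, were called in opposite directions. With the score as a covariate 4 of the 47 were called, and Cxadr was not (0.0725). In crypts 6 of 49 were called between the ages, all lower at 1 year, beside 10.9% of all genes: Patj fell by 1.01, Prkcz by 0.98, Ctnna1 by 0.74 and Cttn by 0.55, and the others, named to complete the count, were Pkp4 and Ctnnd1. Without wild type crypt arrays 2 and 4 the call remained for Ctnnd1 (adjusted p = 0.0176) and was lost for the other 5 (0.153 to 0.552). With the score as a covariate it remained for Ctnna1 (0.0320) and was lost for the other 5 (0.0841 to 0.310).

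In p21-/- crypts 3 of 46 junction genes were called, beside 5.34% of all genes. The desmosome gene Dsp rose by 1.17 ± 0.35 (adjusted p = 0.0395) and Dsc2 fell by 1.04 on the log2 scale (SE 0.30, 0.0325). Spint2, a protease inhibitor of the intestinal epithelium, rose by 0.80 ± 0.21 (0.0212). Without wild type crypt arrays 2 and 4 Dsp (0.0674) and Spint2 (0.309) were not called, and with the score as a covariate Dsp was not (0.0560). In NWD2 crypts Patj rose by 0.64 ± 0.21 (0.0434), 1 of 52 beside 8.15% of all genes. Patj was among the villus-higher genes, enterocyte markers rose in the same comparison as given above, and with the score as a covariate its fold was 0.14 (adjusted p = 0.997). The call held without 1 of the 8 arrays left out in turn. In the Apc1638N/+ and NWD1 comparisons, p21-/- villi and NWD2 villi limma called 0 of the 48 to 51 tested genes of the 3 lists. Of all genes it called 0% to 0.352% there. An unadjusted p under 0.05 was reached by 1 to 8 of the list genes. The fewest were 1 of 51 in NWD1 crypts, beside 329 of all 9610 genes. The most were 8 of 48 in Apc1638N/+ crypts, beside 996 of all 8042 genes.

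Across the 12 group means, F11r and Cldn7 followed each other most closely among the members (Pearson r = 0.90), then Cldn7 and Cldn15 (0.82). Cldn23 and Tjp1 ran against Cldn7, at -0.48 and -0.62. These values describe 12 points that share tissue, arm and scaling, and carry no test. The genes most like each member over the same means, of 6593 compared, were Clptm1, Lsr and Plpp2 for Cldn3 (r = 0.94, 0.94 and 0.93). For Cldn23 they were Hbegf, Rhob and Atf3 (0.85, 0.85 and 0.82), and for Tjp1 Pkig, Xpo7 and Pde5a (0.94, 0.94 and 0.93). F11r was closest to Xpnpep1, Tapbp and Pitpna (0.96, 0.96 and 0.95), and Cldn15 to Pgap4, Nucb1 and Fam20a (0.97, 0.93 and 0.90). For Cldn2 and Cldn4 only 8 and 6 groups had enough measured arrays, and many genes reach a high r over so few points.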

How the data were processed

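Total RNA of crypts and villi was labelled as biotinylated cRNA and hybridised to Affymetrix arrays, per the labels' protocols. The authors deposited log2 values for 45101 probe sets made with GCOS, per the submitters' processing notes, which give no version here, and 55.2% of the cells are blank. Because the arrays' trimmed means (2% trim) differed by a ratio of 1.46, above the limit of 1.2, the log2 values were quantile normalized on the 8350 probe sets with no blank, and blanks stayed blank. Of the probe sets 34945 have 1 gene symbol, 932 several and 9160 none. Each gene was read from its probe set measured on the most arrays, ties going to the higher mean. limma 3.58.1 in R 4.3.3 fitted 1 mean per group over all 12 groups, with a trended variance, and p-values were adjusted by Benjamini-Hochberg over the genes of a comparison, where at least 3 arrays of each group were measured. The fit was tested on simulated data. Arrays number 3 or 4 a group, which limits the precision.

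The members and gene lists were chosen with earlier results of these data known. The text names all members, and of the other junction genes the 6 largest called folds in each direction between the tissues and up to 4 called genes with the smallest p in each comparison within a tissue. Same-numbered crypt and villus arrays deviated together in every pair on Ain76A (correlations of 0.13 to 0.29) and NWD2 (0.29 to 0.49). There the numbers were taken to pair the arrays, a choice that these correlations do not settle. The correlations were also positive in every pair of Apc1638N/+ (0.03 to 0.57) and p21-/- (0.07 to 0.39). They were mixed in wild type (-0.26 to 0.09) and NWD1 (-0.17 to 0.28). Same-numbered treated and control arrays, which come from different mice, gave -0.46 to 0.58. These values thus cannot show whether a number marks 1 mouse. Alternatives were other scalings, filters, probe set choices, a floor for blanks, other models, the replicate block, the crypt-villus score as a covariate and each array left out.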

Additional observations from a re-analysis of the deposited data

Results flagged for a closer look

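In 8 of 88 groups of 4 arrays, 1 array stood far from the others by Dixon's test, which marks about 1 group in 20 by chance. The crypt array 4 of p21-/- mice stood high for both Cldn3, at 13.81 beside 13.08 to 13.18, and Cldn7, at 14.22 beside 13.64 to 13.70. That array had the fewest measured probe sets of the series, 14758. The villus array 4 on NWD1 stood high for both Cldn23, at 11.92 beside 10.93 to 11.02, and F11r, at 12.83 beside 12.48 to 12.49. The other 4 cases were spread over genes and groups. Cldn7 was low on Ain76A villus array 3, at 14.38 beside 14.60 to 14.64, and Ocln was low on NWD1 crypt array 3, at 10.74 while the highest of the others was 11.02. F11r was low on Apc1638N/+ crypt array 2, at 10.98 beside 11.88 to 12.06. On NWD1 crypt array 2 F11r was high by a small amount, at 11.84 beside 11.74 to 11.75.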

How the results depend on the processing

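Of 29 gene folds, each followed through the settings that could be run for it, 8 kept their direction and their side of the threshold in all of them. The folds followed were those called in at least 1 setting other than a left-out array. A called fold was thus unlikely from the start to change direction, least of all with 1 array left out. The direction changed for 0 of the 24 called folds and for 1 of the others: Ocln in wild type, -0.17, ran from -0.49 to 0.09 with each array left out and was 0.19 without crypt arrays 2 and 4. The numbers of members called between crypt and villus are given with the share of all genes called under the same setting. In wild type, with 1 called and 46.1%, there were 3 with blanks at a floor (39.3%), 2 with every probe set (44.9%), 0 with only these groups in the fit (33.1%), 0 without crypt arrays 2 and 4 (45.1%), and 0 to 1 with each array left out (40.2% or more). In Apc1638N/+, with 2 called and 41.1%, there was 1 with the deposited scaling (38.0%), 4 at the floor (34.6%), 0 with only these groups (21.5%) and 1 to 2 with each array left out (36.8% to 44.3%). In p21-/-, with 2 called and 46.0%, there was 1 with the deposited scaling (44.1%), median centring (46.3%) or only these groups (32.2%), 4 at the floor (39.9%) and 1 to 3 with each array left out (39.9% to 47.8%). On Ain76A, with 3 called and 52.5%, there were 5 at the floor (48.2%). On NWD2, with 2 called and 12.5%, there was 1 with only these groups (14.8%), 1 with the replicate block (12.6%) and 0 to 4 with each array left out (2.70% to 19.2%). Over the mean of the 6 conditions, with 6 called and 74.7%, leaving out each array gave 4 to 6 (73.4% to 76.3%).

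Within tissues, Apc1638N/+ crypts had 0 members called and 0 to 3 with each array left out (0% to 8.86% of all genes). In p21-/- crypts, with 1 called and 5.34%, there were 0 with the deposited scaling (5.52%) or with only these groups (0.159%). In NWD2 crypts, with 1 called and 8.15%, there were 0 with the deposited scaling, median centring, the floor, every probe set, no trend or the replicate block (5.70% to 8.95%), 0 with the score as a covariate (0%), and 0 to 1 with each array left out (2.04% to 13.5%). Cldn2 had no blank on crypt arrays, so the floor could not change its fold there. NWD2 villi, with 0 called and 0.352%, had 1 with the deposited scaling (0.909%), median centring (0.898%) or only these groups (2.59%). Villi between the ages, with 3 called and 16.3%, had 0 with the score as a covariate (5.53%) and 0 to 3 with each array left out (8.72% to 18.9%). The test of the p21-/- tissue difference, with 0 called and 1.75%, had 1 at the floor (1.99%) or with the replicate block (3.36%), and 0 to 1 with each array left out (0.0156% to 5.92%). That of NWD2, with 0 called and 0.500%, had 1 with only these groups (14.0%). The cause of these moves was not tested. The replicate block moved no other count of members by more than 1.5 times, and was not run between the ages. Over the mean of the 6 conditions it called 6. Over all genes it moved the NWD2 tissue difference from 42 to 284 called, the p21-/- one from 120 to 227, Apc1638N/+ crypts from 4 to 0 and NWD2 villi from 31 to 5. Blanks limit Cldn2 in villi and Cldn4 in crypts, where only the floor gave values for most conditions.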
